A study of Mus musculus with 6 samples.

Results

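The genes described here were the amyloid precursor family (App, Aplp1 and Aplp2), its adaptors Apbb1 and Apbb2, and the proteases Psen2 and Bace1. The members were found by their GENCODE M21 gene identifiers in the lists of alternative splicing and transcript-end events of 6 nucleus accumbens (NAc) libraries. All 7 of the 7 genes were listed, out of 16154 genes listed in any library, and they carried 56 of 132823 events.

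The libraries came from adult male C57BL/6N mice, 7 to 8 weeks old, trained in conditioned place preference (CPP), in which an animal learns to link a compartment with an injection. The morphine group (3 libraries) received morphine at 10 mg/kg intraperitoneally and saline in alternating daily sessions over 6 days, and the saline group (3 libraries), the control, received saline. The NAc, a ventral striatal region of the reward circuit, was taken whole after the test on day 7, so core and shell were not separated. The series description gives 6 mice per group, while the study's figure text ties each library to the tissue of a single mouse, and whether animals were pooled was not settled here, so p-values measure only the spread between these libraries.

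App, Aplp1 and Aplp2 are membrane proteins with a large extracellular part and a short cytoplasmic tail. In App, the beta-secretase Bace1 makes the first cut of the route to amyloid-beta peptides, and gamma-secretase, whose catalytic subunit is a presenilin such as Psen2, then cuts within the membrane. Apbb1 and Apbb2 (Fe65 and Fe65L1) bind the cytoplasmic tail that these cuts release. Alternative splicing decides whether App and Aplp2 carry an extracellular Kunitz-type protease inhibitor domain, and in brain the App form without this domain is the usual neuronal one. Aplp1, which is largely neuronal, has no such domain.

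An event in these lists is a difference among the transcripts assembled in a library, or a transcript start or end. Exon skipping, retained introns, exons with another splice site at either end (alternative exon ends), and starts and ends formed 4 families. Each form of an exon with alternative ends counted as 1 event, and a retained intron counted once under each class that listed it. A run of introns retained together counted as a further event. A gene assembled as 1 transcript carries just 1 start and 1 end. The lists hold no expression level, and an event missing from a list was not thereby absent from the tissue. Positions below are on GRCm38, and exons are numbered in the named annotated transcript.

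The coding alternative exons that bear on the family are shown first. Skipping of the Kunitz exon was listed for Aplp2 and not for App. Exon 7 of App-206 (chr16:85043576-85043743, minus strand) and exon 7 of Aplp2-201 (chr9:31167561-31167728, minus strand) both encode the Kunitz domain and are both 168 bases long. Compared base by base without gaps, 114 positions (67.9%) were the same, with a longest identical run of 17 bases. Identical positions are in capitals.
App exon 7: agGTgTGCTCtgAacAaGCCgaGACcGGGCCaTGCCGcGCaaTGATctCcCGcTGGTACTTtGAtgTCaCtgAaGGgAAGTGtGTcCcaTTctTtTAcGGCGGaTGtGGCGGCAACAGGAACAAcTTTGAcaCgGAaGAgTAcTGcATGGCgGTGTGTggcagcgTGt
Aplp2 exon 7: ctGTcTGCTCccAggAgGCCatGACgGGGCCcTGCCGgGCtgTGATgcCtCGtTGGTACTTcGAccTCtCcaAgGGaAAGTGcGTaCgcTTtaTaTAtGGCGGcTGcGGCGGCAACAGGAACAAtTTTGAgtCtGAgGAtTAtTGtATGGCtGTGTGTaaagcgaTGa

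The remaining exons are shown because their inclusion was the listed choice, or because App is known to vary there. Exon 8 (chr16:85040251-85040307, 57 bases) and exon 15 (chr16:84971408-84971461, 54 bases) of App belong to the extracellular part, and omission of exon 15 creates an attachment site for glycosaminoglycan chains. The 36-base exon of Aplp2 (chr9:31156190-31156225) has the same known role in Aplp2. Exon 6 of Bace1 (chr9:45858400-45858501, plus strand, 102 bases) and a 63-base exon of Apbb2 (chr5:66392273-66392335, minus strand) are also wholly coding. These 5 exons, and both Kunitz exons, are a multiple of 3 bases long, so that inclusion or skipping keeps the reading frame. In App and Aplp2, all 5 exons shown start after the first base of a codon.
App exon 8: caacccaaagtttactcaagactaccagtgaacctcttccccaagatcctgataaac
App exon 15: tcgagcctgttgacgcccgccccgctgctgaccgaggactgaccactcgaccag
Aplp2 36-base exon: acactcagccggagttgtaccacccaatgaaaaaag
Bace1 exon 6: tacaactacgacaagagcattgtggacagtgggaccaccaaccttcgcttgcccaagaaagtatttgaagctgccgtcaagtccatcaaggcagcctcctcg
Apbb2 63-base exon: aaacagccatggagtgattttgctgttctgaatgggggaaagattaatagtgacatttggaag

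The shortest listed cassette was the 6-base exon of Apbb1 (chr7:105565946-105565951, minus strand), a neuronal microexon in the stretch that encodes the first phosphotyrosine-binding domain. It is shown in capitals between 18 bases of each neighbouring exon, followed by the junction that forms when it is skipped.
Apbb1 with the exon: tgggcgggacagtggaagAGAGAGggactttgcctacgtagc
Apbb1 without the exon: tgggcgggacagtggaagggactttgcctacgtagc

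App was listed with 1 start and 1 end in every one of the 6 libraries, and with no internal event in any. The start had its splice side at 85173502 and its outer end at 85173707, and the end had its splice side at 84955432 and its outer end at 84954440. Of the 6 protein-coding App transcripts in the annotation, App-203 was the only one with both outer ends, and App-207 shared the end alone. App-203 contains exons 7 and 8 and lacks exon 15. The annotation holds alternatives at each of these exons, since exon 7 is skipped by 1 of the 6 coding transcripts, exon 8 by 3 and exon 15 by 3. None of the 3 exons was listed as skipped in a saline or a morphine library. The lists do not state which internal exons the assembled App transcript held, so nothing was read from them on the neuronal form without exons 7 and 8. Over all genes, 1905 of 16154 genes (11.8%) had this same pattern of 1 start, 1 end and nothing else in all 6 libraries.

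Aplp1 showed the same pattern, with 1 start and 1 end in all 6 libraries and no internal event. It has 1 protein-coding transcript in the annotation, with 17 exons and no counterpart of the 168-base Kunitz exon between exons 6 and 7. The outer start, 30445582, was not an end of any GENCODE M21 transcript and coincided with the start that RefSeq gives for Aplp1. The outer end was 30434981.

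Aplp2 was listed with 4 events in each of the 6 libraries, and all 4 were shared by all libraries. Besides the start (splice side 31211623) and the end (splice side 31150972), these were the skipping of the 168-base Kunitz exon and of the 36-base exon. Both exons were skipped between the same neighbouring exons in every library, from 31168708 to 31164673 for the Kunitz exon and from 31157695 to 31153499 for the 36-base exon. Forms with and without each exon were thus assembled in all 3 saline and all 3 morphine libraries. The annotated coding transcripts divide in the same way, since Aplp2-201 and Aplp2-203 contain the Kunitz exon and Aplp2-202 and Aplp2-209 skip it, and Aplp2-202 and Aplp2-203 contain the 36-base exon. The proportion of the forms cannot be read from the lists.

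**Figure D1:**
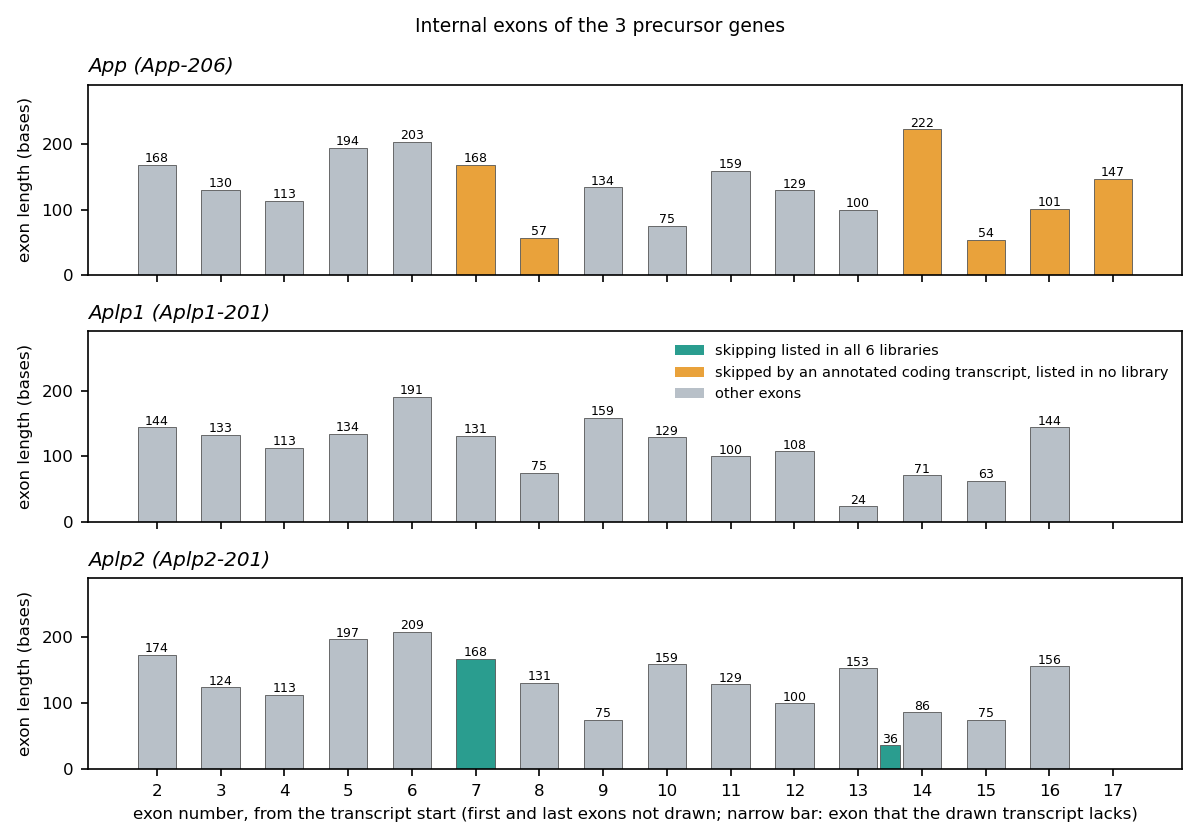
Length in bases (y axis) of each internal exon, by exon number from the transcript start (x axis), for App-206, Aplp1-201 and Aplp2-201, with green for exons listed as skipped in all 6 libraries and orange for exons that an annotated coding transcript skips and no library listed as skipped. The 168-base exon 7 stands at the same place in App and Aplp2 and is missing from Aplp1, and the following exons repeat the lengths 75, 159, 129 and 100 bases in all 3 genes.

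Apbb1, the adaptor that joins the App tail to nuclear proteins, carried the most starts of the members. It had 15 distinct events, of which 6 were in all 6 libraries, 5 were in 2 to 5 libraries and 4 were in 1 library. The 6 constant events were 5 starts and 1 end. The splice sides of the starts were 105581483, 105581135, 105569240, 105568793 and 105568619, and that of the end was 105559050. Each start matched the outer start of an annotated coding transcript, for example Apbb1-217 at 105581653 and Apbb1-207 at 105568963. The 3 downstream starts lie beyond the partly coding 735-base exon (chr7:105573682-105574416), so their transcripts lack it. In the library morphine 1, the second start reached to 105581491, against 105581278 in the other 5 libraries, and the third reached to 105569273, against 105569513.

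Of the exons skipped in Apbb1, 3 were listed in 5 libraries each. The 6-base microexon was listed as skipped in the 3 saline libraries and in morphine 2 and 3, and not in morphine 1. A noncoding 40-base exon (chr7:105568619-105568658) had the same 5 libraries. A noncoding 115-base exon (chr7:105575430-105575544) was listed in all libraries but saline 1. None of these 3 separated the groups. A noncoding 84-base exon (chr7:105568793-105568876) was listed only in saline 2 and 3, as was its joint skipping with the 40-base exon, and the 735-base exon only in saline 2.

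The total number of events of Apbb1 was 11, 12 and 11 in the saline libraries and 7, 9 and 9 in the morphine libraries. The groups did not overlap, the saline mean being 11.3 ± 0.577 and the morphine mean 8.33 ± 1.15 (SD, n = 3), with a two-sided exact permutation p of 0.1, the smallest that 3 against 3 libraries can give. Apbb1 was the 1 gene of 7 with more events in every saline than every morphine library, which 0.966% of all genes also had. That share is over genes with a median of 5 distinct events, against 15 in Apbb1. It was not computed for genes with as many events as Apbb1. The starts and end were 6 in every library, so the whole difference lay in internal events. Exon skipping counted 2, 6 and 5 in saline and 1, 3 and 3 in morphine, which overlapped (p = 0.3, exact permutation test). In saline 1, 3 further events described 1 exon form, in which a 99-base retained intron joined the 128-base exon and the microexon into a 233-base exon. In saline 2 and 3, the 84-base exon was counted alone and again in the joint skipping.

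When internal events of a gene that overlapped each other were counted once per library, a rule added after the data were seen, Apbb1 had 8, 10 and 9 events in saline and 7, 9 and 9 in morphine. The groups then overlapped, the difference was -0.667 events and the exact permutation p was 0.7. No member was then higher in every library of either group. Over all genes, 0.73% were then higher in every saline library and 1.59% in every morphine library. The relative depth was 1, 1.07 and 1.37 in the saline libraries and 1.2, 1.59 and 1.29 in the morphine libraries. The part of depth in the Apbb1 count was not tested.

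**Figure D2:**
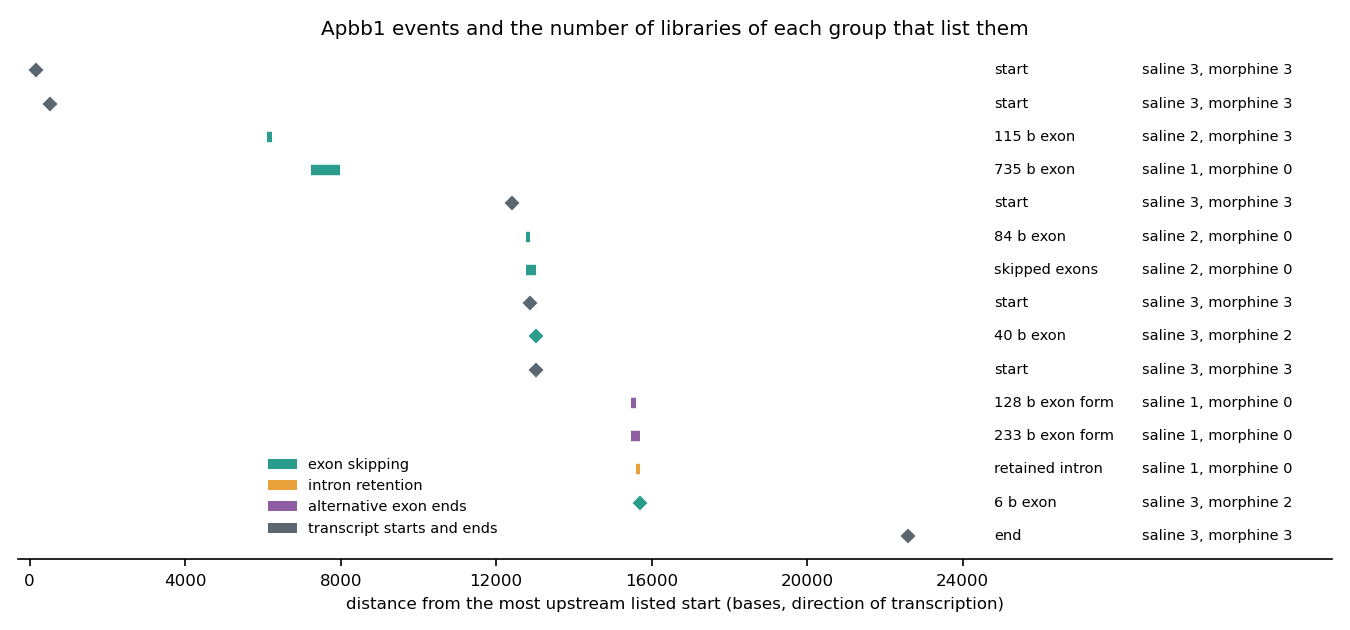
Position of the 15 Apbb1 events as distance in bases from the most upstream listed start (x axis, direction of transcription), 1 event per line with the number of saline and morphine libraries that list it, where starts and the end are drawn at their splice side and diamonds mark exons of at most 40 bases as well as the starts and the end. The 5 starts and the end are in all 3 libraries of both groups, and the events found in 1 or 2 saline libraries lie close to each other at 2 places besides the 735-base exon.

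Apbb2, the second adaptor, carried 14 events, 2 of them in all 6 libraries. Those were the start at the splice side 66618568 and the skipping of the coding 63-base exon, whose inclusion is annotated in Apbb2-201, Apbb2-210 and Apbb2-215, among others, and its skipping in 3 coding transcripts. A noncoding 156-base exon (chr5:66543462-66543617) was skipped in all libraries but saline 2. A noncoding 115-base exon (chr5:66492058-66492172) was listed as skipped in saline 1, saline 2 and morphine 1. A start within the gene (splice side 66337466) was listed in the 3 saline libraries and morphine 2, with a different outer end in each of the 4. The annotated end at the splice side 66302709 was listed in saline 1 and in the 3 morphine libraries. The other 8 events were each in 1 library. The gene had 7, 5 and 5 events in saline and 6, 8 and 5 in morphine, and these overlapped (p = 0.7, exact permutation test).

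Psen2 was listed with its start (splice side 180256223) and its end (splice side 180227728) in all 6 libraries, both at the outer ends of Psen2-205. It had 2 events in each saline library and 4, 2 and 2 in the morphine libraries. Both additional events of morphine 1 were the same retained intron of 424 bases, listed under 2 classes, between the exon bases 180228961 and 180229386. The annotated transcript Psen2-212 retains this intron, and 7 others splice it. Over all genes, morphine 1 listed the most retained-intron events, 9534 against 5409 to 7925 in the other libraries. No exon of Psen2 was listed as skipped.

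Bace1 had 15 events, of which 3 were in all 6 libraries. These were the first start (splice side 45839288), the end (splice side 45860054) and the skipping of the 102-base exon 6, which Bace1-202 skips in the annotation. A start with the splice side 45852976 was listed in saline 2 and in the 3 morphine libraries, with 4 different outer ends. In saline 2, morphine 2 and morphine 3 it began inside the gene, and in morphine 1 its outer end was 45838580, that of the first start, so that there the first exon ran on unspliced. Shorter forms of the protein are known to arise from other splice sites in exons 3 and 4. Neither exon was listed as skipped, but each was listed with another end beside its usual form in 1 library. Exon 3 was listed as both 236 and 217 bases in morphine 3, and exon 4 as both 63 and 138 bases in saline 3. The 63-base form is annotated. The 236-base form is longer than the usual exon 3 and is in no annotated transcript. The intron of 888 bases behind exon 4 was retained in saline 3 and in morphine 3. The counts were 4, 4 and 11 in saline and 4, 4 and 7 in morphine, so 1 library of each group stood above the rest and the groups overlapped (p = 1, exact permutation test). With overlapping events counted once, they were 3, 4 and 5 against 4, 4 and 6.

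**Figure D3:**
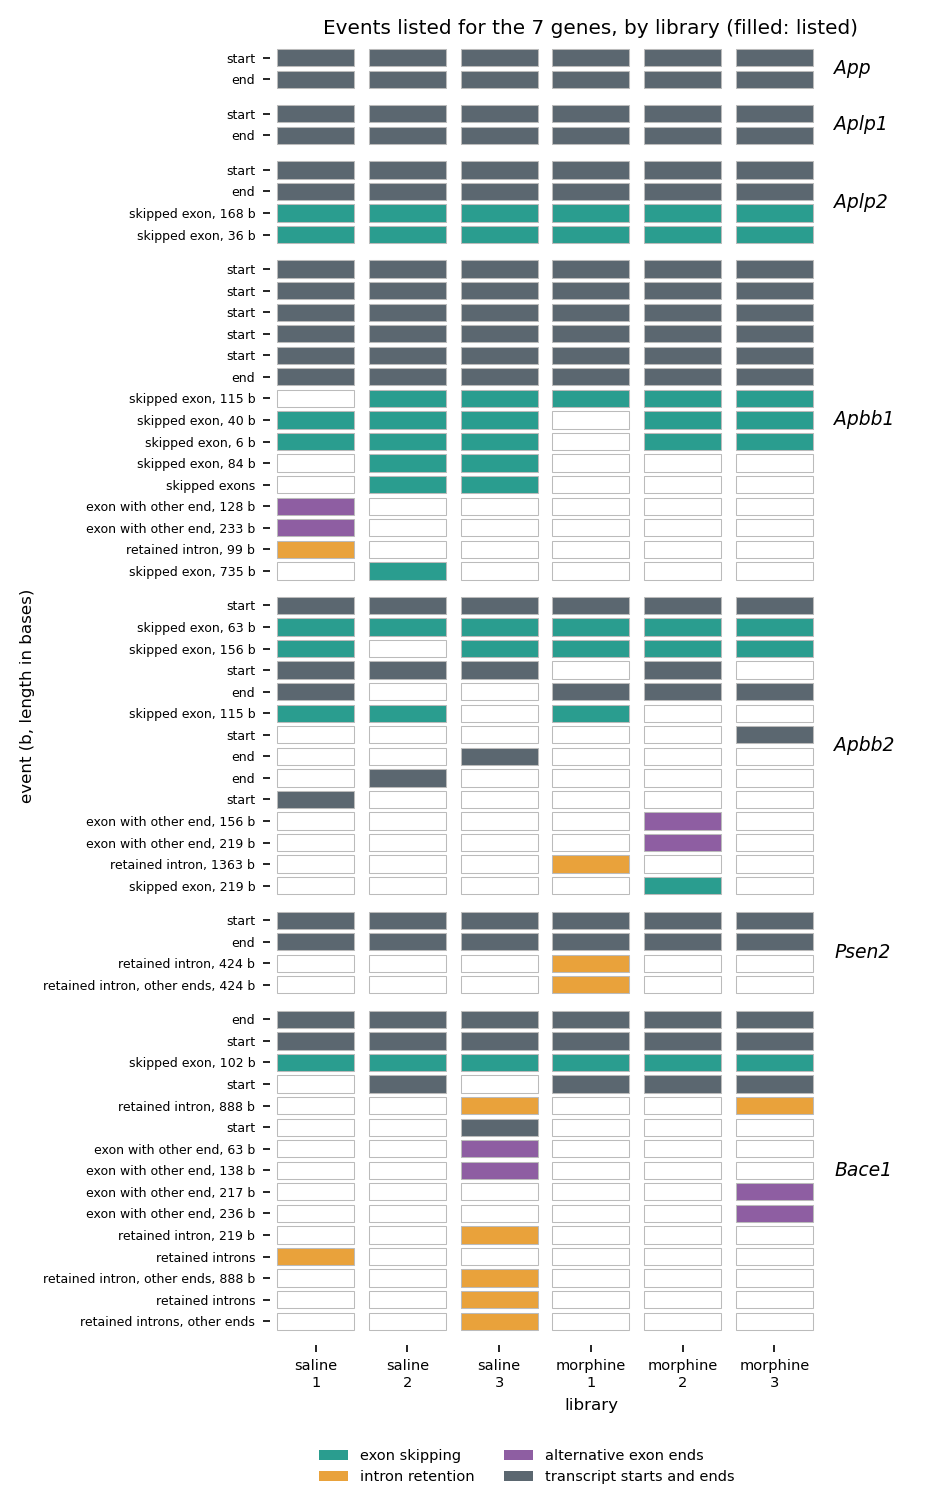
All 56 events of the 7 genes (rows, with the exon or intron length in bases, b) in the 6 libraries (columns), where a filled box means listed and the colour gives the family. The upper rows of each gene are filled throughout, 21 events in all. In the rows below them, all 8 alternative exon ends and 9 of the 10 retained-intron events are filled in 1 library each. Both forms of an exon, and an intron listed under more than 1 class, have rows of their own.

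Summed over the 7 genes, the saline libraries listed 32, 31 and 37 events and the morphine libraries 29, 31 and 31. The means were 33.3 ± 3.21 and 30.3 ± 1.15 (SD, n = 3), and the exact permutation p was 0.3. The difference was -3, and -1.17 without saline 3. Per 10000 events of the library, the sums were 5.5, 5.67 and 6.48 in saline and 4.66, 5.13 and 5.45 in morphine, which did not overlap (exact permutation p = 0.1). The sums before this scaling overlapped, and the totals used for it were highest in morphine 1 (62209) and morphine 2 (60466). No share over other sets of genes is given beside it. Full coordinates or unmerged entries gave differences of -8 and -9 (exact permutation p = 0.1 for both). Skipping events numbered 8, 11 and 10 in saline and 7, 9 and 8 in morphine (exact permutation p = 0.3). Retained-intron events, in which the same intron can count under more than 1 class, numbered 2, 0 and 5 in saline and 3, 0 and 1 in morphine (exact permutation p = 0.7). For alternative exon ends the values were 2, 0 and 2 against 0, 2 and 2 (exact permutation p = 1), and for starts and ends 20 in all libraries but morphine 1, which had 19 (exact permutation p = 1). In each family the groups overlapped. When overlapping internal events were counted once, the sums were 28, 29 and 29 in saline and 28, 28 and 30 in morphine, with the same mean of 28.7.

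No event of the 7 genes marked off one group, by presence in its 3 libraries and absence from the 3 others. The count was 0 of 56 for the morphine group, against 0.381% of all events, and 0 of 56 for the saline group, against 0.277%. At these rates less than 1 such event would stand among 56, so the zeros are near the background. None of the 7 genes had more events in every morphine than every saline library, against 1.8% of all genes.

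**Figure D4:**
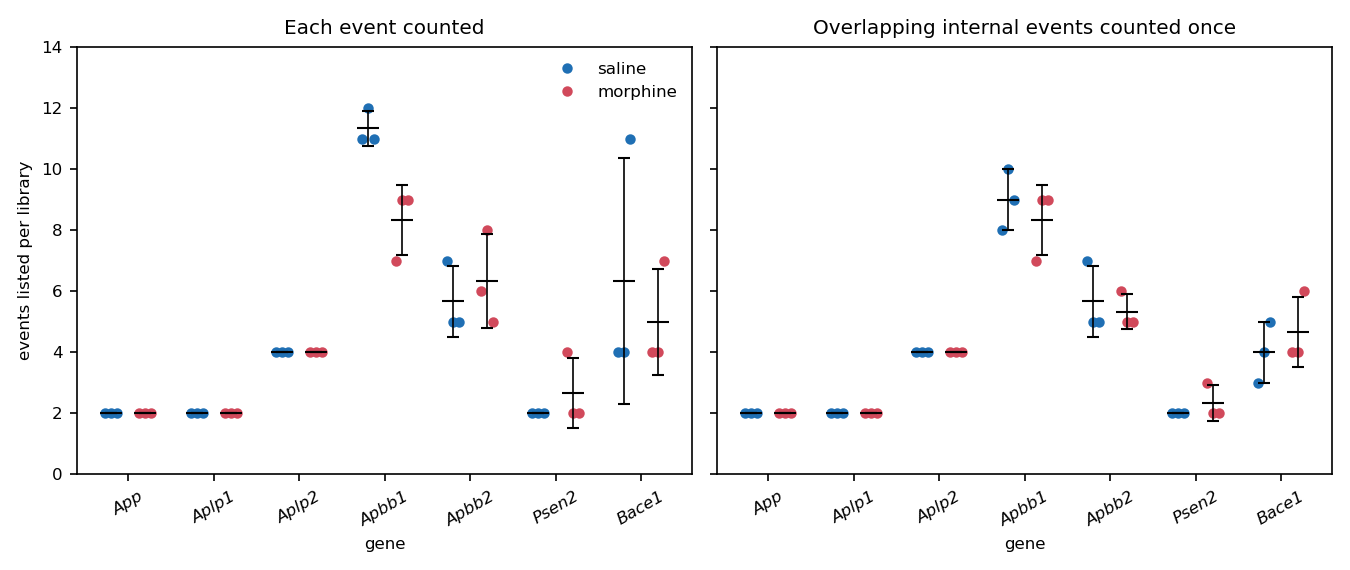
Events listed per library (y axis) for each of the 7 genes (x axis), with 1 point per library, a line at the group mean and bars of 1 SD (n = 3), counting each event (left) or counting overlapping internal events once (right). The saline points of Apbb1 lie above the morphine points on the left, at 11 to 12 against 7 to 9, and overlap with them on the right.

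The events of the 7 genes were shared between libraries to differing degrees. Of the 56 events, 21 (37.5%) were in all 6 libraries and 24 (42.9%) in 1, and over all genes the values were 20.5% and 50.5%. Starts and ends were in all 6 libraries in 17 of 25 cases (68%, against 29.8% over all genes), and exon skipping in 4 of 13 (30.8%, against 19.7%). No retained-intron event (0 of 10) and no exon form with an alternative end (0 of 8) was in all 6, against 1.7% and 9.09% over all genes. The 4 exons skipped in all 6 libraries, those of Aplp2 (2), Apbb2 and Bace1, were wholly coding and between 36 and 168 bases long. All 4 had a length that is a multiple of 3. Over all genes, 69.6% of the 2135 single exons skipped in all 6 libraries had one, coding or not and 6 to 9955 bases long. Of the 12 single exon forms listed as skipped in any library, 9 had a length that is a multiple of 3 (75%, against 51.2% over all genes, coding or not). Of these, 5 were wholly coding, 1 partly coding and 3 noncoding. The noncoding ones include 2 forms of 1 Apbb2 exon, of 219 and 156 bases, skipped by the same junction. All 12 are annotated exons.

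**Figure D5:**
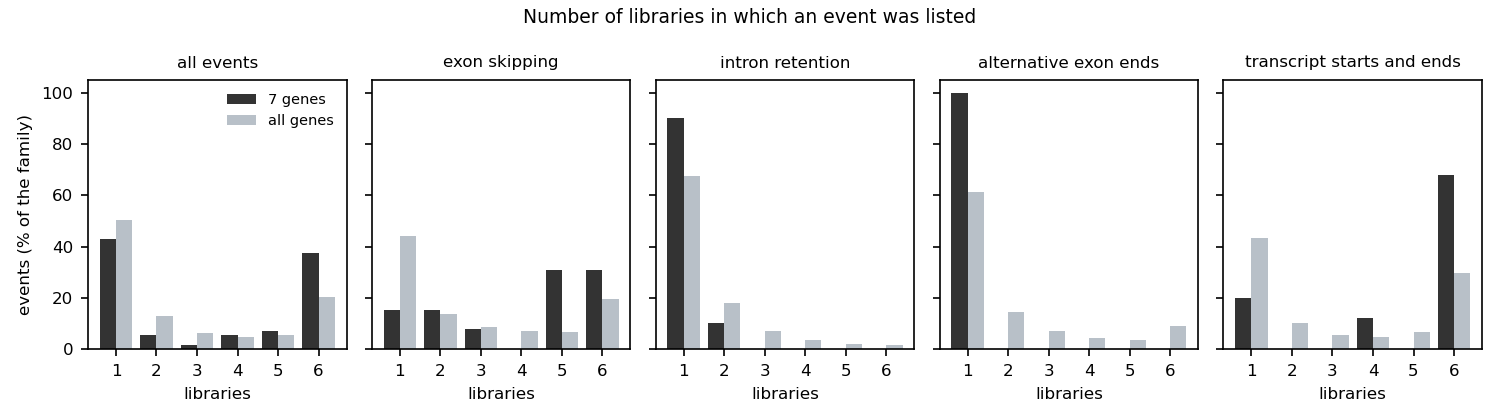
Share of events in percent of the family (y axis) by the number of libraries that listed them (x axis, 1 to 6), for the 7 genes (dark) and all genes (grey), over all events and in each of the 4 families. Starts and ends of the 7 genes stand at 6 libraries (68%), and their retained-intron events (90%) and alternative exon ends (100%) at 1. Over all genes these shares are 29.8%, 67.5% and 61.5%. Both forms of an exon, and an intron listed under more than 1 class, are counted separately.

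The members differed widely in number of events. App and Aplp1 had 2 events each, below the median of 5 over all genes. Psen2 and Aplp2 had 4 each. Apbb2 with 14, and Apbb1 and Bace1 with 15 each, had more events than 85.4%, 86.9% and 86.9% of all genes. The events of App, Aplp1 and Aplp2 were the same ones in all 6 libraries.

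RefSeq promoter windows (GRCm38.p6, 250 bases before to 50 after a start) were found for 6 of the 7 genes, in 10 windows, and none of Bace1 was used here. The listed outer start coincided with a RefSeq start in all 6 libraries in App, Aplp1, Psen2 and, for the most downstream start, Apbb1, and the upstream RefSeq start of Apbb1 (105581491) was met in morphine 1. The number of CpG was 30 in the App window, 26 in Aplp1 and 29 in Aplp2, against a median of 7 over 32817 windows. Psen2 had 23 in its upstream and 8 in its downstream window, and Apbb2 had 27 and 13. Apbb1 differed between its own starts, with 19 CpG in the upstream window and 6 and 5 in those of the downstream starts. GGGCGG, the GC box, was present on either strand in 7 of the 10 windows and in 35.6% of all windows. TATAAA was in none of the 10, on either strand, and in 13.6% of all.

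Other genes of amyloid precursor processing, binding and clearance were taken as a list of 31. Of these, 30 were listed in all 6 libraries and Apbb3, the third adaptor of the Apbb family, in none. They carried 212 events, of which 73 (34.4%) were in all 6 libraries. Of these events, 0 were in every morphine and no saline library, against 0.381% of all events, and 2 were in every saline and no morphine library, against 0.277%. The 2 were 1 of the adaptor Dab1 and 1 of Clu, which encodes the extracellular chaperone clusterin. No gene of the list had more events in every morphine library (1.8% of all genes) or in every saline library (0.966%). The gamma-secretase subunits Ncstn, Aph1a, Aph1b, Aph1c and Psenen had no exon skipped in all 6 libraries, as was so for Psen2. Aph1a had 13 events in morphine 1 against 2 to 4 in the other libraries. Morphine 1 also held the most events over all genes, 62209. Among the adaptors of the tail, 6 exons were skipped in all 6 libraries, 2 in Apba2, 2 in Numb, 1 in Kat5 and 1 in Klc1. The alpha-secretases Adam10 and Adam17 and the second beta-secretase Bace2 had none.

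By the Pearson correlation of the event count with the summed count of the 7 genes over the 6 libraries, the most similar of 745 genes with a mean of at least 10 events were Zscan26 (0.989), Cux1 (0.933) and Sra1 (0.926). Zscan26 had 17, 12 and 29 events in saline and 9, 12 and 13 in morphine. Cux1 had 10, 10 and 11 events in saline and 10, 10 and 10 in morphine. In each of the 3, as in the sum of the 7 genes, saline 3 had the most events. Of the members, Bace1 alone had more events in saline 3 than in every other library. The correlations describe these 6 libraries only.

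Across whole lists, the libraries held between 54660 and 62209 events, and the relative depth, recovered from read counts and FPKM of the authors' deposited lncRNA table, ran from 1 to 1.59. All 11 markers of striatal projection neurons were listed in all 6 libraries. So were all 15 markers of oligodendrocytes, astrocytes, microglia, ependyma and cortical glutamatergic neurons, so the tissue held RNA of other cell types as well, and which cells gave the events of the 7 genes was not tested.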

How the data were processed

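RNA of 6 NAc libraries, 3 per group by the treatment label, was sequenced by the authors with a strand-specific kit. Per the study's methods, reads were mapped with HISAT2 and transcripts assembled with StringTie. The program that listed the events, the genome build and the annotation are not given in the sources used here. Assembly depends on depth, and an isoform that was not assembled gives no event.

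The deposited event lists carry a column named FPKM that held whole numbers from -25 to 0, a score with no stated meaning, which was not used. The read counts and FPKM values of 31 lncRNA transcripts deposited by the authors served only for the relative depth, by weighted least squares on log(count/FPKM) (91 values with at least 10 counts). The log2 fold changes and false discovery rates in that table are the authors' own comparisons and were not used. No per-sample column was left unused (0).

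The 2 entries of an event, included and skipped, were merged. Identity was set by class, gene, chromosome and the bounds of the exon or intron, and for starts and ends by splice-side coordinate and strand. Paired entries of a few events carry opposite strands, so strand was left out for pairs. The 20 event types formed 12 classes and 4 families. Of the gene identifiers, 99.2% were found in GENCODE M21 (GRCm38), whose transcripts gave the exon sequences, and positions count from 1. Event counts of the groups were tested by exact permutation, two-sided, over the 20 assignments of 6 libraries to 3 and 3, in Python 3.11.15 with numpy 2.4.6, pandas 2.3.3 and matplotlib 3.10.9. The scripts were tested on simulated data.

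The members and lists were chosen with earlier results of these data known. Named were all 7 genes, internal events in at least 3 libraries, starts and ends in all 6, and alternative exons known for these genes. Other events were named after their values were seen. An item of the list of other pathway genes is not reported here. Alternatives were full coordinates as identity, unmerged entries, no events on the other strand, events per 10000 and each library left out. The merging of overlapping events was added after seeing the data. Replicate numbers follow accession order and name libraries only.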

Additional observations from a re-analysis of the deposited data

How the results depend on the processing

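Of 86 recomputed values, 71 kept their direction or, for counts, stayed within 1.5 times, 14 did not (a difference moved to or from 0, or a count by more) and 1 changed sign. The 71 include outcomes fixed in advance. Values without events on the other strand could not differ, since no member entry (0 of 265) lay there. The number of genes without overlap could not fall when a library was left out. Counting overlapping internal events once, an alternative added after seeing the data, ended both differences that the main count gave, with a difference of 0 (exact permutation p = 1) in the summed events in place of -3, and 0 in place of 1 genes without overlap. The summed difference was -8 with full coordinates and -9 with unmerged entries (exact permutation p = 0.1 for both), and -0.803 per 10000 events (exact permutation p = 0.1). When each library was left out in turn, it ran from -4.17 to -1.17, exon skipping from -2.5 to -1, and starts and ends from -0.5 to 0 (without morphine 1). Retained-intron events ran from -2.17 to 0.333, with the sign changed without saline 3, which alone held 5 of the 11 retained-intron listings over all libraries. Alternative exon ends ran from -0.667 to 0.667 and were -0.00382 per 10000 events. Events of every morphine and no saline library ran from 0 to 1 (an Apbb2 end without saline 1, a Bace1 start without saline 2), and those of every saline and no morphine library from 0 to 2. Shares over all events or all genes are not given here for a library left out, so these counts have no background beside them. The cause was not tested. Apbb1 was without overlap between the groups with full coordinates and with unmerged entries, both giving 14, 20 and 18 against 8, 12 and 12. The same held per 10000 events. Shares over all genes are not given here for these alternatives. Leaving out a library cannot make separate groups overlap, and no member entry (0 of 265) was on the other strand. Those alternatives therefore could not test the separation of Apbb1. No paired analysis was possible because the labels give no replicate numbers. With 3 libraries per group no p under 0.1 can be reached, and total reads were not used here.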
